A study of Mus musculus with 12 samples.

Results

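The genes described here are 40 genes of mitosis and the spindle checkpoint, chosen by name from a fixed list and found by their gene names in a count table of 54532 mouse genes. All 40 were detected, and all 40 were among the 14473 genes with enough counts to be tested. The list goes by what the genes do, and no measured value is part of its rule. It was, however, chosen with earlier results of these data known, so counts over the list are a description. Transcripts were measured by poly(A) RNA-seq in B lymphocytes sorted from 3 wild type mice and 3 mice labelled Tmem173-/-, a name kept below as the label of their libraries. Tmem173 encodes STING, the endoplasmic reticulum protein that binds cyclic dinucleotides and switches on interferon and NF-kB signalling. The cells were cultured in 96-well plates with 3'3'-cGAMP, a cyclic dinucleotide that STING binds, or as labelled controls. The 4 groups of 3 libraries are wild type control, wild type cGAMP for 12 hours, Tmem173-/- control and Tmem173-/- cGAMP for 12 hours. The labels give neither the strain, age or sex of the mice, nor the organ the cells came from, nor what was added to the control wells. They also leave unsaid which mouse each library was made from and what a shared replicate number stands for, so the p-values measure only the spread between these libraries, which may be technical.

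A cell enters mitosis when the kinase Cdk1, held active by cyclins A and B, phosphorylates many proteins, after which the spindle forms, the kinetochores of each chromosome attach to it, and the spindle checkpoint holds back the anaphase-promoting complex until every kinetochore is attached. Most transcripts of this machinery rise in G2 and M phase through the MuvB complex with B-MYB or FOXM1, which is recruited to a short promoter element, the cell cycle genes homology region (CHR), often beside CCAAT boxes bound by NF-Y. Resting B cells rarely divide, and among B cells these transcripts are known from precursor, activated and germinal centre cells.

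The CHR is shown first because it is the feature that most of these genes share. RefSeq promoter windows on GRCm38.p6, the build of the count table, were found for 34 of the 40 genes, as 37 windows of 300 bases that run from 250 bases before to 50 bases after the transcription start. Where a gene has several windows (Ect2, Prc1 and Bub3) they overlap, and letters that they share were counted in each. The binomial intervals below treat the windows as independent. The letters TTTGAA or TTCGAA were searched on both strands and were present in 30 of the 37 windows, 81.1% (95% exact binomial interval 64.8% to 92.0%), against 19.2% of all 32851 mouse windows. In 27 of the 37 windows, 73.0%, a copy began within 50 bases of the start, against 5.31% of all windows. CCAAT, on both strands, was in 78.4% of the windows of the mitotic genes and in 37.4% of all windows. The E2F letters GCGGGAAA were in 0 of the 37 windows (interval up to 9.49%) and in 1.07% of all windows. The interferon-stimulated response element, searched on both strands as GAAA, any 2 bases and GAAA again, was in 5.41% of these windows and in 3.44% of all windows. Of the 41 CHR copies, 1 overlapped a CCAAT and 1 overlapped a match to the interferon-stimulated response element. A match of this kind describes letters and does not show that a protein is bound.

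**Figure D1:**
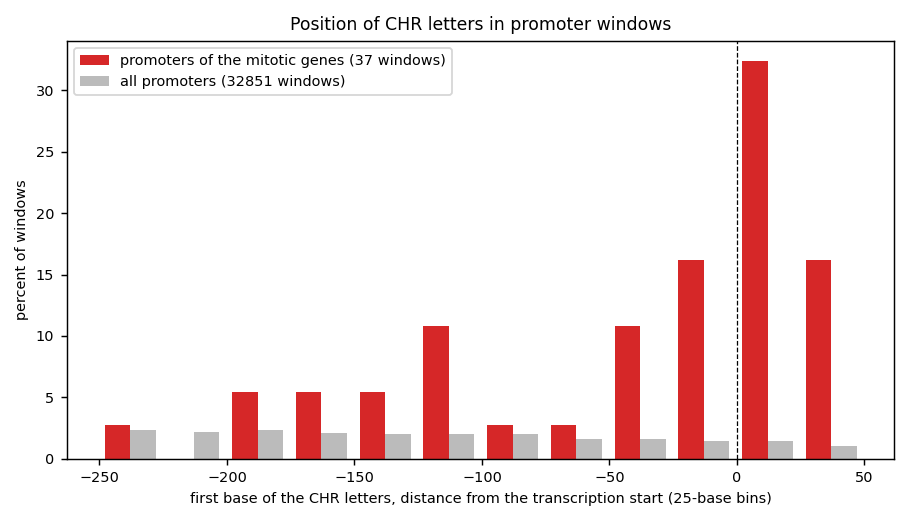
Share of promoter windows (percent, vertical axis) in which a CHR, TTTGAA or TTCGAA on either strand, begins in each bin of 25 bases around the transcription start (horizontal axis, bases, start at the dashed line), for the 37 windows of the mitotic genes in red and all 32851 windows in grey. The bin that begins at the start holds a CHR in 32.4% of the windows of the mitotic genes and in 1.43% of all windows.

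The stretches below run from 170 bases before to 30 bases after the start, 5′ to 3′ on the strand of the gene, for the 5 genes with a CHR whose transcripts rose most after cGAMP in wild type cells and for Cenpa, whose transcript fell. Capitals mark the CHR (TTTGAA or TTCGAA, reading TTCAAA where a TTTGAA lies on the opposite strand) and the CCAAT box, which reads ATTGG where it lies on the opposite strand. Bub1 lies at chr2:127831830-127832029 on the minus strand, Anln at chr9:22389177-22389376 on the minus strand, Espl1 at chr15:102296123-102296322 on the plus strand, Cdk1 at chr10:69352883-69353082 on the minus strand, Ttk at chr9:83834519-83834718 on the plus strand and Cenpa at chr5:30666716-30666915 on the plus strand.
Bub1: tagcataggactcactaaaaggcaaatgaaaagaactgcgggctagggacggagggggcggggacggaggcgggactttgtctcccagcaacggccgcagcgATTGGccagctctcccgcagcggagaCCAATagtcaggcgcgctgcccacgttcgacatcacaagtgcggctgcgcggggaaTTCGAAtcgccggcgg
Anln: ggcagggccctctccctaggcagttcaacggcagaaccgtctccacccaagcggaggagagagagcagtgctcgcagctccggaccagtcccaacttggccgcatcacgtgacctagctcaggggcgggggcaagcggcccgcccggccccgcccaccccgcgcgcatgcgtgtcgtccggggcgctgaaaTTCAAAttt
Espl1: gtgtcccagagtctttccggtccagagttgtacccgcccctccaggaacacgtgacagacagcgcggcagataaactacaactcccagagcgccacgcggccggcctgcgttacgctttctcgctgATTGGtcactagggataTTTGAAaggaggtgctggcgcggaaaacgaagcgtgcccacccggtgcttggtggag
Cdk1: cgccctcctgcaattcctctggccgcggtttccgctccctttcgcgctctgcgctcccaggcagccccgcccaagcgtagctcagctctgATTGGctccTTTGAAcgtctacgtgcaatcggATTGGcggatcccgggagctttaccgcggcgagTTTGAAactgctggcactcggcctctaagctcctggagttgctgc
Ttk: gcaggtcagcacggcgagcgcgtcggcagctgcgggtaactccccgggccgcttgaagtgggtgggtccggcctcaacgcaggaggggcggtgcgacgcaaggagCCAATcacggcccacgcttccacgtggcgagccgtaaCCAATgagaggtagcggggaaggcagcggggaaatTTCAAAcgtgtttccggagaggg
Cenpa: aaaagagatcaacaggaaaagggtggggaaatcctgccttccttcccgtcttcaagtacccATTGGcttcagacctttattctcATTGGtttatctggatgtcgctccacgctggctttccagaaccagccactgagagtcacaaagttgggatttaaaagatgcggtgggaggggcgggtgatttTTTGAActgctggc
The CHR begins after the start in Bub1, Anln, Ttk and Cenpa and before it in Espl1 and Cdk1. Cdk1 holds 2 copies, and so does Anln. The second copy of Anln begins at base 29, runs past the end of the printed stretch and is not in capitals. Counted from 1 at the first transcribed base, the CHR begins at base 15 in Bub1 and at base 17 in Cenpa, in both behind a pair of CCAAT boxes. Among the 19 genes with a window whose transcript rose in wild type cells, 15 had a CHR, and among the 15 that did not rise, 12 had one.

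The libraries held 26490593 to 31417833 counts each, and the 40 genes made up 0.0365% to 0.0571% of them. Single counts of these genes ranged from 8 to 3876 per library, with a median of 132.5. The labelled cell type was checked against 8 B cell markers, all detected in every library, with a summed level of 5898 to 9586 CPM (counts per 1000000 counts of the library, scaled by edgeR's TMM factors). The B cell markers themselves moved with treatment: 6 of the 8 were lower and 2 were higher in wild type cGAMP than in wild type controls. Of all tested genes, 25.4% were lower and 22.4% higher in that comparison. Both wild type replicate 1 libraries stood apart. Their 8 T cell markers summed to 12.3 CPM in the control and 21.7 CPM with cGAMP, against 2.75 to 6.15 CPM in the other 10 libraries. Their 8 neutrophil markers summed to 9.37 and 23.9 CPM, against 0 to 1.80 CPM elsewhere, with S100a8, S100a9, Ngp, Ltf and Camp all highest in these 2 libraries. Elane was at 0 in all 12, while Mpo was at 0 in the other 10 and had 4 counts in each of these 2. Their 7 markers of precursor B cells summed to 5.13 and 10.7 CPM, against 1.46 to 3.82 CPM elsewhere, but Il7r, which T cells also express, gave 129 and 264 of the counts, and Rag1 had 8 and 20 counts there against 20 and 49 in wild type replicate 2. In all 4 groups, those of Tmem173-/- included, replicate 1 was the highest of the 3 for 24 to 33 of the 40 mitotic genes, while it was the highest for 29.2% to 38.9% of all tested genes. The part of such cells in the results was not tested, and the main counts are given below with and without these libraries.

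Tmem173 itself was read as a check of the labels. It gave 91.2, 102 and 92.7 CPM in wild type controls and 80.2, 94.7 and 103 CPM in Tmem173-/- controls, and the groups overlapped (log2 difference -0.04, SE 0.10, edgeR quasi-likelihood adjusted p = 0.935). A disrupted gene can leave a transcript that still gives reads, so the genotype rests on the labels. Tmem173 fell in wild type cells after cGAMP, to 44.7, 49.2 and 48.0 CPM, and was 82.9, 101 and 95.9 CPM in Tmem173-/- cells with cGAMP.

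In wild type B cells, 12 hours of cGAMP went with higher transcript levels of most of the mitotic genes. Of the 40 genes, 23 rose and 1, Cenpa, fell at an adjusted p under 0.05 (edgeR quasi-likelihood F test with Benjamini-Hochberg adjustment over all tested genes). The background in this comparison was 22.4% of all 14473 tested genes higher and 25.4% lower, 47.8% in either direction. The median log2 fold change was 0.91 over the 40 genes and -0.00 over all tested genes. The 23 genes rose by 0.64 to 2.29 on the log2 scale, and 15 of them by at least 2-fold. In 24 of the 40 genes all 3 treated libraries lay above all 3 controls, against 26% of all tested genes, and in Cenpa they lay below, against 28.4%. In a bulk library a higher level can come from more cells in mitosis or from more RNA in each cell, and likewise fewer cells of a type and less RNA per cell cannot be told apart. Without both wild type replicate 1 libraries 24 genes were higher and 1 was lower, with a median of 0.99, and 22 of the 23 were still called; the exception was Spc25. Without all 4 replicate 1 libraries 28 were higher and 1 was lower, and all 23 were still called.

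**Figure D2:**
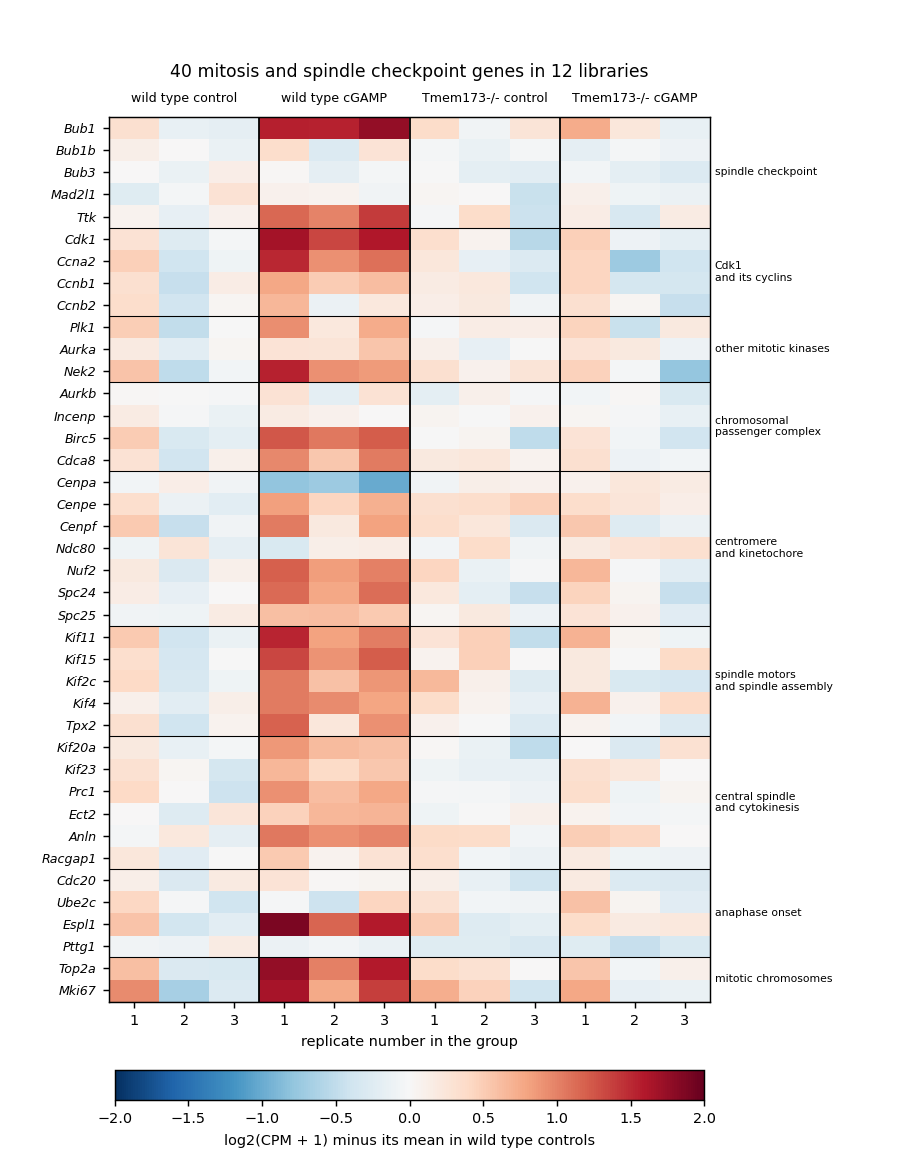
Level of each of the 40 genes (rows, grouped by role) in each of the 12 libraries (columns), as log2(CPM + 1) minus its mean in the 3 wild type controls, red for higher and blue for lower. The 3 wild type cGAMP columns are red for most rows and blue for Cenpa, and the 6 Tmem173-/- columns stay near the wild type controls.

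Averaged over the 40 genes, log2(CPM + 1) came to 2.75, 2.29 and 2.45 for the untreated wild type libraries and to 3.32, 2.98 and 3.21 with cGAMP. For Tmem173-/- the values were 2.66, 2.57 and 2.35 untreated and 2.80, 2.44 and 2.39 with cGAMP. Every treated wild type library lay above the other 9. The summed level gave a smaller contrast, with means of 398 ± 36.7 CPM in wild type controls and 504 ± 58.0 CPM with cGAMP, and 389 ± 29.1 and 392 ± 39.3 CPM in Tmem173-/- (SD, n = 3 in each group). A single gene, Bub3, gave 104 to 137 CPM of that sum in each library.

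Of the 5 spindle checkpoint genes, 2 rose. Bub1 encodes a kinase that recruits checkpoint proteins to kinetochores and marks histone H2A at centromeres. It gave 1.57, 0.845 and 0.813 CPM in wild type controls and 5.02, 4.92 and 5.91 CPM with cGAMP. In Tmem173-/- it gave 1.63, 0.941 and 1.46 CPM in controls and 2.42, 1.40 and 0.849 CPM with cGAMP. The 3 treated wild type libraries lay above all 9 others, and the wild type change of 2.29 on the log2 scale (SE 0.35, 4.90-fold, edgeR adjusted p = 6.4e-05) was the largest among the 40 genes. Ttk, the Mps1 kinase that starts checkpoint signalling, gave 1.50, 1.13 and 1.52 CPM in wild type controls and 4.26, 3.72 and 5.23 CPM with cGAMP. Its levels in Tmem173-/- were 1.34, 2.05 and 0.766 CPM in controls and 1.64, 0.899 and 1.66 CPM with cGAMP. Again the treated wild type libraries lay above all others (log2 change 1.67, SE 0.33, edgeR adjusted p = 0.00055). Bub3, the adaptor that binds Bub1 and BubR1, was the most abundant of the 40 genes and gave 126, 114 and 137 CPM in wild type controls and 128, 111 and 122 CPM with cGAMP. It gave 124, 109 and 108 CPM in Tmem173-/- controls and 120.3, 109.7 and 104 CPM with cGAMP, so the groups overlapped (wild type log2 change -0.06, SE 0.09, 95% interval -0.26 to 0.13, edgeR adjusted p = 0.594). Bub1b, which encodes BubR1, and Mad2l1, which encodes the Mad2 protein that both enter the inhibitor of the anaphase-promoting complex, had wild type changes of 0.14 (SE 0.14) and 0.01 (SE 0.15) on the log2 scale and did not pass the test.

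Among Cdk1 and its cyclins, 2 of 4 rose. Cdk1, the kinase of mitotic entry, gave 3.03, 1.76 and 2.19 CPM in wild type controls and 9.46, 7.27 and 8.94 CPM with cGAMP. It gave 3.14, 2.45 and 1.24 CPM in Tmem173-/- controls and 3.57, 2.06 and 1.87 CPM with cGAMP. No treated wild type library overlapped with any other library (log2 change 1.88, SE 0.31, 3.67-fold, edgeR adjusted p = 0.00013). Ccna2, cyclin A2 of S and G2 phase, gave 4.31, 1.90 and 2.58 CPM in wild type controls and 9.79, 6.16 and 7.19 CPM with cGAMP (log2 change 1.40, SE 0.37, edgeR adjusted p = 0.0066). In Tmem173-/- it gave 3.47, 2.39 and 2.15 CPM in controls and 4.13, 1.30 and 1.90 CPM with cGAMP. The B cyclins, partners of Cdk1 in mitosis itself, did not pass the test. Ccnb2 gave 2.42, 1.06 and 1.77 CPM in wild type controls and 3.24, 1.48 and 2.10 CPM with cGAMP, and its groups overlapped (log2 change 0.38, SE 0.37, edgeR adjusted p = 0.428). In Tmem173-/- it gave 1.96, 2.08 and 1.57 CPM in controls and 2.34, 1.76 and 0.951 CPM with cGAMP. Ccnb1 had a wild type log2 change of 0.71 (SE 0.29, edgeR adjusted p = 0.0566), and its 3 treated libraries lay above its controls.

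Of the other mitotic kinases, Nek2 rose and Aurka and Plk1 did not pass the test. Nek2, which loosens the link between centrosomes, gave 2.24, 0.528 and 1.10 CPM in wild type controls and 5.31, 3.10 and 2.92 CPM with cGAMP (log2 change 1.55, SE 0.54, edgeR adjusted p = 0.0297). In Tmem173-/- it gave 1.73, 1.31 and 1.61 CPM in controls and 2.01, 1.13 and 0.272 CPM with cGAMP. Its treated wild type libraries were the 3 highest of 12, but the adjusted p of Nek2 was the largest among the 23 genes, and it was not called without control replicate 2 or 3 or without cGAMP replicate 1. Aurka, the kinase of centrosome maturation, gave 7.20, 5.24 and 6.43 CPM in wild type controls and 7.72, 7.68 and 9.69 CPM with cGAMP. The treated libraries lay above the controls by a log2 change of 0.41 (SE 0.17, edgeR adjusted p = 0.058), and the Tmem173-/- libraries gave 6.80, 5.44 and 6.24 CPM in controls and 7.74, 7.32 and 5.74 CPM with cGAMP. Plk1, the Polo kinase of spindle assembly and mitotic exit, had a log2 change of 0.86 with an SE of 0.40.

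The chromosomal passenger complex corrects faulty attachments and later drives cytokinesis, and 2 of its 4 genes rose. Birc5, which encodes the survivin subunit, gave 3.10, 1.34 and 1.52 CPM in wild type controls and 5.86, 4.99 and 5.70 CPM with cGAMP. It gave 1.86, 2.02 and 1.02 CPM in Tmem173-/- controls and 2.49, 1.80 and 1.22 CPM with cGAMP, all below the treated wild type libraries (log2 change 1.47, SE 0.33, edgeR adjusted p = 0.0016). Cdca8, which encodes borealin, gave 6.98, 4.05 and 6.01 CPM in wild type controls and 11.8, 8.57 and 12.5 CPM with cGAMP (log2 change 0.95, SE 0.20, edgeR adjusted p = 0.0012). It gave 6.51, 6.69 and 5.87 CPM in Tmem173-/- controls and 7.22, 5.13 and 5.30 CPM with cGAMP. Incenp, the scaffold of the complex, gave 28.9, 25.4 and 23.5 CPM in wild type controls and 29.2, 27.5 and 26.0 CPM with cGAMP, with overlap between the groups (log2 change 0.09, SE 0.10). Its Tmem173-/- libraries gave 26.8, 25.7 and 27.5 CPM in controls and 26.6, 25.3 and 23.2 CPM with cGAMP. Aurkb, the kinase subunit, had a log2 change of 0.16 (SE 0.16). The calls thus differed within one complex, although differences between its subunits were not tested. The 2 more abundant by length-scaled FPKM in wild type controls, Aurkb at 9.26 ± 0.616 and Incenp at 7.86 ± 1.14, were not called (SD, n = 3).

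At the centromere and kinetochore 4 of 7 genes rose and 1 fell. Cenpa, the histone H3 variant that marks centromeres, gave 48.7, 55.6 and 48.2 CPM in wild type controls and 28.9, 30.4 and 24.6 CPM with cGAMP. It gave 48.3, 55.1 and 53.6 CPM in Tmem173-/- controls and 54.0, 59.8 and 56.9 CPM with cGAMP. All 3 treated wild type libraries lay below the other 9 (log2 change -0.86, SE 0.10, 1.82-fold lower, edgeR adjusted p = 2.6e-06), and Cenpa was the only one of the 40 genes called in this direction. Nuf2, a subunit of the Ndc80 complex that holds microtubules, gave 2.35, 1.41 and 2.16 CPM in wild type controls and 5.75, 4.24 and 4.91 CPM with cGAMP (log2 change 1.33, SE 0.32, edgeR adjusted p = 0.0026). It gave 2.98, 1.68 and 1.90 CPM in Tmem173-/- controls and 3.65, 1.90 and 1.53 CPM with cGAMP. Cenpe, a kinetochore motor that brings chromosomes to the spindle equator, gave 5.66, 3.87 and 3.60 CPM in wild type controls and 8.37, 6.13 and 7.69 CPM with cGAMP (log2 change 0.76, SE 0.19, edgeR adjusted p = 0.0035). Its Tmem173-/- controls, at 5.66, 5.74 and 6.38 CPM, overlapped with the treated wild type libraries, and with cGAMP Tmem173-/- gave 5.81, 5.29 and 4.79 CPM. The other 2 subunits of the Ndc80 complex that rose were Spc24 (log2 change 1.28, SE 0.30) and Spc25 (0.70, SE 0.19), while Ndc80 itself, which encodes the subunit that contacts the microtubule, had a log2 change of -0.01 (SE 0.17, 95% interval -0.37 to 0.35). Cenpf, a large protein of the outer kinetochore, had a log2 change of 1.03 with an SE of 0.48 and did not pass the test.

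All 5 genes of spindle motors and spindle assembly rose. Kif2c, a kinesin that depolymerises microtubules at centromeres, gave 1.39, 0.457 and 0.707 CPM in wild type controls and 2.73, 1.72 and 2.35 CPM with cGAMP (log2 change 1.41, SE 0.48, edgeR adjusted p = 0.024). It gave 1.83, 0.941 and 0.511 CPM in Tmem173-/- controls, the first of which overlapped with the treated wild type range, and 1.08, 0.466 and 0.442 CPM with cGAMP. Kif2c was not called without control replicate 2 or 3, or without cGAMP replicate 1 or 3. Kif15, a motor that helps to keep the spindle bipolar, gave 3.70, 1.97 and 2.72 CPM in wild type controls and 8.44, 5.96 and 7.62 CPM with cGAMP, above every other library (log2 change 1.39, SE 0.25, edgeR adjusted p = 0.00023). It gave 2.91, 4.20 and 2.74 CPM in Tmem173-/- controls and 3.28, 2.70 and 3.87 CPM with cGAMP. Tpx2, which nucleates spindle microtubules and activates Aurora A, gave 4.92, 2.60 and 3.96 CPM in wild type controls and 9.76, 4.55 and 7.87 CPM with cGAMP. Its second treated library lay below the first control, so the groups overlapped although the test was passed (log2 change 0.95, SE 0.27, edgeR adjusted p = 0.0086), and without cGAMP replicate 1 it was not. Tpx2 gave 4.02, 3.70 and 2.92 CPM in Tmem173-/- controls and 3.98, 3.56 and 2.92 CPM with cGAMP. Kif4, a chromosome-bound motor, and Kif11, the motor that pushes the spindle poles apart, rose by 1.37 (SE 0.30) and 1.26 (SE 0.36) on the log2 scale.

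Of the 6 genes of the central spindle and cytokinesis, 5 rose. Anln encodes anillin, the scaffold of the cleavage furrow, and was the least abundant of the 40 genes in wild type controls, at 0.463, 0.739 and 0.318 CPM. With cGAMP it gave 2.11, 1.82 and 1.96 CPM (log2 change 1.95, SE 0.41, 3.85-fold, edgeR adjusted p = 0.0011). In Tmem173-/- Anln gave 0.948, 0.941 and 0.438 CPM in controls and 1.12, 0.999 and 0.510 CPM with cGAMP, below all treated wild type libraries. Ect2, the exchange factor that starts furrow formation, gave 5.41, 4.33 and 6.50 CPM in wild type controls and 7.75, 9.09 and 9.15 CPM with cGAMP (log2 change 0.68, SE 0.16, edgeR adjusted p = 0.0028). It gave 5.00, 5.34 and 5.84 CPM in Tmem173-/- controls and 5.69, 5.13 and 5.16 CPM with cGAMP, and it too was highest in the 3 treated wild type libraries. Racgap1, the GTPase-activating partner of Kif23 in centralspindlin, gave 13.2, 9.43 and 11.1 CPM in wild type controls and 16.5, 11.7 and 13.9 CPM with cGAMP, with overlapping groups (log2 change 0.32, SE 0.17, edgeR adjusted p = 0.132). It gave 14.4, 10.6 and 10.3 CPM in Tmem173-/- controls and 12.8, 10.4 and 10.3 CPM with cGAMP. The remaining genes of the group, Prc1, which bundles the central spindle, Kif20a, a motor of the central spindle, and Kif23 rose by 0.95 (SE 0.26), 0.83 (SE 0.23) and 0.64 (SE 0.22) on the log2 scale.

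Of the 4 genes of anaphase onset, 1 rose. Espl1 encodes separase, the protease that cuts cohesin, and gave 3.38, 1.30 and 1.55 CPM in wild type controls and 9.86, 5.65 and 7.90 CPM with cGAMP. It gave 3.20, 1.48 and 1.57 CPM in Tmem173-/- controls and 2.79, 2.33 and 2.41 CPM with cGAMP, so the treated wild type libraries stood above the rest (log2 change 1.91, SE 0.35, 3.75-fold, edgeR adjusted p = 0.00038). Pttg1, which encodes securin, the inhibitor of separase, gave 15.9, 15.5 and 18.7 CPM in wild type controls and 15.3, 15.9 and 15.2 CPM with cGAMP (log2 change -0.11, SE 0.11, 95% interval -0.34 to 0.12). It gave 14.0, 13.8 and 13.1 CPM in Tmem173-/- controls and 14.0, 11.9 and 13.2 CPM with cGAMP. A protease and its inhibitor in this list therefore gave intervals that did not overlap, 1.16 to 2.66 for Espl1 and -0.34 to 0.12 for Pttg1, although the difference between them was not tested. Cdc20, the activator of the anaphase-promoting complex, and Ube2c, its ubiquitin-conjugating enzyme, had log2 changes of 0.12 (SE 0.18) and 0.01 (SE 0.49), and the interval of Ube2c, -1.04 to 1.05, includes changes of 2-fold either way.

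The last group holds Top2a, the topoisomerase that untangles sister chromosomes, and Mki67, the Ki-67 protein that coats mitotic chromosomes. Top2a gave 26.2, 13.7 and 13.5 CPM in wild type controls and 60.0, 35.0 and 52.7 CPM with cGAMP (log2 change 1.47, SE 0.28, 2.77-fold, edgeR adjusted p = 0.0014). It gave 22.2, 21.2 and 17.0 CPM in Tmem173-/- controls and 25.5, 16.2 and 18.3 CPM with cGAMP, below all 3 treated wild type libraries. Mki67 gave 14.0, 3.94 and 5.44 CPM in wild type controls and 23.4, 12.3 and 19.5 CPM with cGAMP, and replicate 1 was the highest in both groups, as it was in both Tmem173-/- groups. The groups overlapped, and the log2 change of 1.24 (SE 0.53) did not pass the test (edgeR adjusted p = 0.082). Mki67 gave 12.0, 9.71 and 4.96 CPM in Tmem173-/- controls and 12.4, 5.96 and 6.15 CPM with cGAMP.

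**Figure D3:**
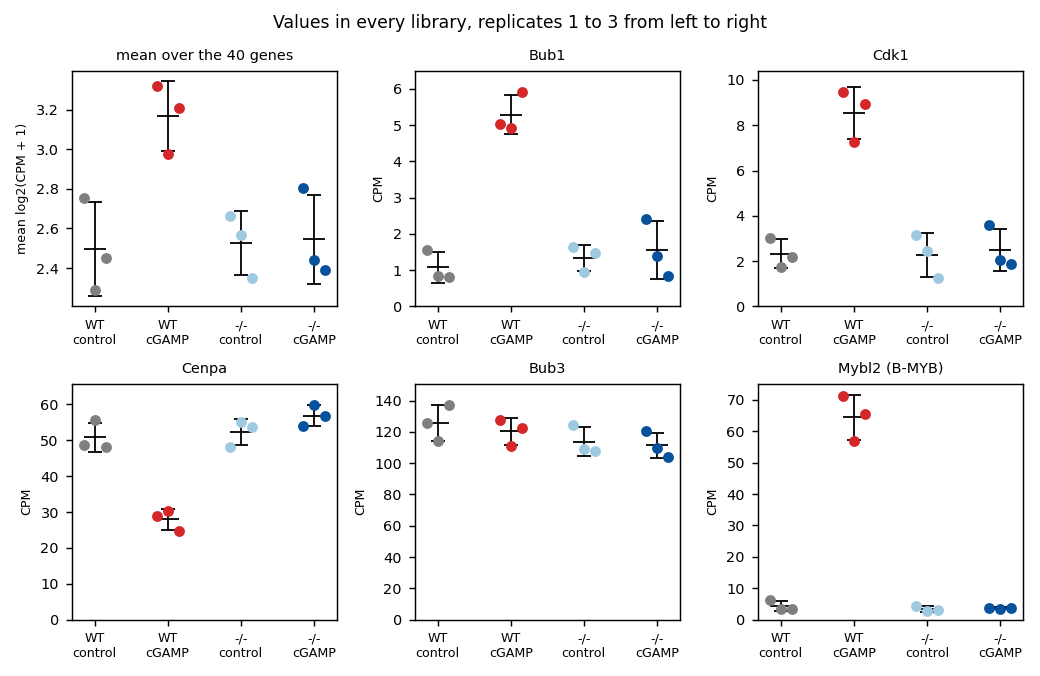
Values in every library (points, replicates 1 to 3 from left to right) with mean and SD (bars, n = 3) in the 4 groups, for the mean log2(CPM + 1) over the 40 genes and for the CPM of Bub1, Cdk1, Cenpa, Bub3 and Mybl2. The 3 wild type cGAMP points lie above all others for the mean, Bub1, Cdk1 and Mybl2, below all others for Cenpa, and among the others for Bub3.

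The 16 genes that were not called fall into 2 kinds. For 9 of them, Bub1b, Bub3, Mad2l1, Aurkb, Incenp, Ndc80, Cdc20, Ube2c and Pttg1, the fitted wild type change was under 0.2 in size on the log2 scale. For the other 7, Ccnb1, Ccnb2, Plk1, Aurka, Cenpf, Racgap1 and Mki67, it was 0.32 to 1.24 with SEs of 0.17 to 0.53. Changes of the size seen in the called genes could be missed in these 7. They could also be missed in Ube2c among the 9, which had an SE of 0.49 and an interval of -1.04 to 1.05. Among the rest of the 9 the highest upper bound was 0.51, for Cdc20, below the smallest called rise of 0.64.

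The change also varied with the level of the gene. Levels were compared per length, as FPKM in the Tmem173-/- controls, whose libraries do not enter the wild type contrast. The 10 genes with the highest level, 6.78 to 57.1 FPKM, held 1 gene that rose (Top2a), 1 that fell (Cenpa) and 8 that were not called, with a median wild type log2 change of 0.10. The other 30 genes, at 0.418 to 4.98 FPKM, held 22 that rose and 8 that were not called, with a median of 1.13. Across the 40 genes, which share libraries and scaling and are not replicates, level and change had a Pearson r of -0.71 on log2 FPKM and a Spearman correlation of -0.66. Over all tested genes with a level above 0 the Spearman correlation was -0.11, and the share called higher was 25.7% at or above 6.78 FPKM and 17.3% between 0.418 and 4.98 FPKM. This split was made after the values were seen and is a description.

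**Figure D4:**
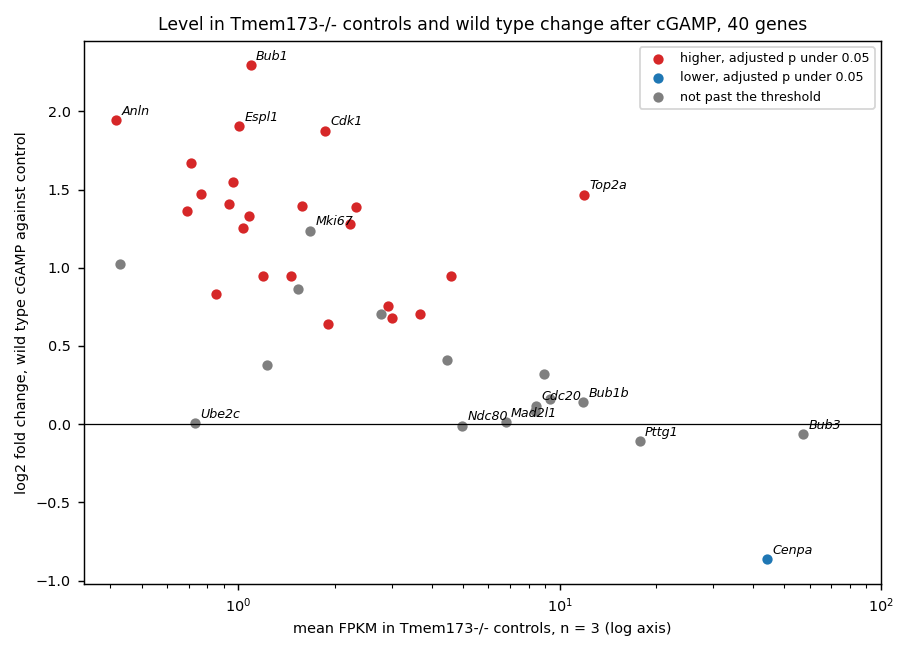
Wild type log2 fold change with cGAMP (vertical axis) against the mean FPKM in Tmem173-/- controls (horizontal log axis, n = 3) for the 40 genes, coloured by the edgeR call. Most genes under 5 FPKM lie between 0.6 and 2.3, whereas of the 10 genes above them only Top2a lies above 0.4.

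In Tmem173-/- cells none of the 40 genes was called after cGAMP by edgeR, and neither was any of the 14473 genes tested, a background of 0%. At an unadjusted p under 0.05 the count was 0 of the 40 genes and 203 of all genes, and DESeq2, limma-voom and limma on log2 FPKM also called 0 genes. Without the filter on low counts edgeR called 10 genes higher and 13 lower, none of them among the 40. The log2 changes of the 40 genes ran from -0.74 for Kif2c to 0.47 for Kif4, with a median of 0.01. The 95% intervals reached 0.20 to 1.21 to either side, narrow for Bub3 and Cenpa and wide for Nek2 and Mki67. In 1 of the 40 genes all 3 treated libraries lay above all 3 controls, against 3.2% of all tested genes, and in none did they lie below, against 3.44%.

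The genotypes were compared directly through the difference between their responses. The wild type response exceeded the Tmem173-/- response for 14 of the 40 genes and was lower for 1, Cenpa, against a background of 14.1% of tested genes in the first direction and 17.5% in the second, 31.6% together. On log2(FPKM + 1) with limma the split over all genes was 2494 higher and 2036 lower, against 2037 and 2532 by edgeR, and 17 of the 40 were higher and 1 was lower. The median difference was 0.87 on the log2 scale over the 40 genes and -0.02 over all tested genes. All 14 are among the 23 that rose in wild type cells. Kif2c (2.15, SE 0.70), Bub1 (2.09, SE 0.50), Anln (1.78, SE 0.58) and Cdk1 (1.75, SE 0.44) had the largest called differences, with edgeR adjusted p of 0.028, 0.0048, 0.0287 and 0.0070. For Cenpa the difference was -0.98 (SE 0.14, edgeR adjusted p = 5.8e-05). Bub1, Cdk1, Cdca8, Cenpe, Kif15 and Cenpa were called under all 22 alternative settings. The number of genes depended on single libraries: it was 7 without Tmem173-/- control replicate 1, 8 without wild type control replicate 3, wild type cGAMP replicate 1 or 3, or Tmem173-/- cGAMP replicate 2 or 3, and 9 without wild type control replicate 2 or Tmem173-/- control replicate 2. It was 19 without Tmem173-/- cGAMP replicate 1, 18 by DESeq2 and 22 with the replicate number as a block. Without both wild type replicate 1 libraries 13 genes were higher and 1 was lower, and 11 of the 14 were still called, with Anln, Ect2 and Nuf2 lost. For 9 genes that rose in wild type cells the difference was not called, among them Nek2 (2.00, SE 0.78), Spc24 (1.03, SE 0.43), Kif4 (0.89, SE 0.42) and Kif23 (0.22, SE 0.32). Under the 22 alternatives the difference was called in 10 for Nek2, 7 for Kif11, 6 for Spc25 and Tpx2, 5 for Spc24 and 1 for Prc1, and in none for Kif4, Kif20a and Kif23.

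**Figure D5:**
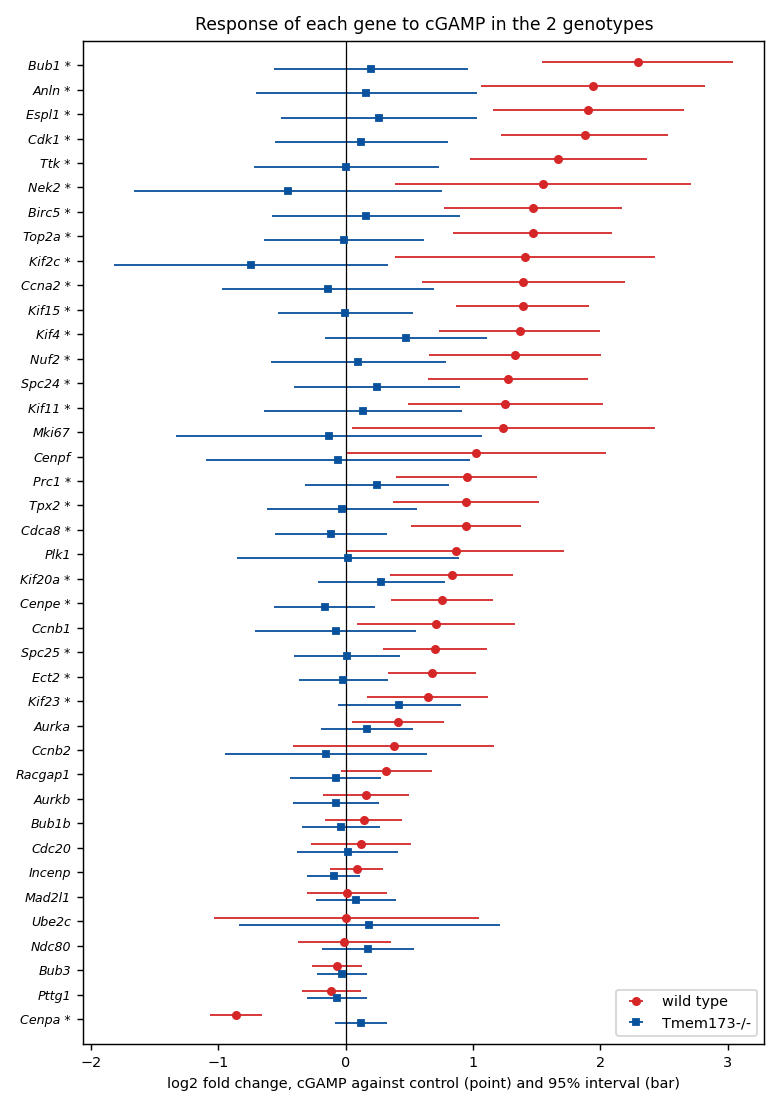
Log2 fold change of each of the 40 genes after cGAMP (points) with 95% interval (bars), in wild type (red circles) and Tmem173-/- cells (blue squares), ordered by the wild type change, an asterisk marking the genes called in wild type. The wild type points run from -0.86 for Cenpa to 2.29 for Bub1, and the Tmem173-/- points from -0.74 to 0.47.

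Between the controls of the genotypes edgeR called 0 of the 40 genes, on a background of 0% of tested genes. At an unadjusted p under 0.05 the counts were 2 of the 40 genes, Pttg1 (log2 difference -0.29) and Cenpe (0.44), and 921 of all genes. Pttg1 was the 1 gene with all 3 Tmem173-/- controls below the wild type controls, against 4.08% of all tested genes, and none of the 40 had all 3 above, against 5.01%. DESeq2 called 4 genes higher in Tmem173-/- controls, and edgeR without the filter on low counts called 32 higher and 119 lower, none of them among the 40. With cGAMP, 22 of the 40 genes were lower in Tmem173-/- than in wild type cells and 1, Cenpa, was higher, against a background of 23.5% of tested genes lower and 24.9% higher, 48.3% together. All 3 Tmem173-/- libraries lay below the wild type ones in 25 of the 40 genes, against 29.2% of all tested genes, and above in 2, against 29.7%. This comparison uses the same treated libraries as the responses above. The genes that were lower were 21 of the 23 that rose in wild type cells, without Kif4 and Kif23, together with Ccnb1. Cdk1 was 3.43-fold lower (log2 difference -1.78, SE 0.31, edgeR adjusted p = 0.00018), and Cenpa had a log2 difference of 1.03 (SE 0.10). Without both wild type replicate 1 libraries 18 were lower and 1 was higher.

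Further genes of the same pathway were read from 9 lists of 144 genes, all of them tested, of which 80 rose and 13 fell in wild type cells, against the background of 22.4% higher and 25.4% lower given above. In the list of MuvB, FOXM1 and E2F transcription 12 of 20 rose and 3 fell. Mybl2 encodes B-MYB, the activator that joins MuvB at CHR promoters, and gave 6.27, 3.31 and 3.39 CPM in wild type controls and 71.1, 57.0 and 65.4 CPM with cGAMP. It gave 4.41, 2.92 and 2.96 CPM in Tmem173-/- controls and 3.87, 3.36 and 3.87 CPM with cGAMP, so only the treated wild type libraries were high (log2 change 3.90, SE 0.22, 14.9-fold, edgeR adjusted p = 4.4e-09; difference between responses 3.79, SE 0.31). The repressors E2f8 and E2f7, themselves E2F targets, rose by 2.71 (SE 0.44) and 2.10 (SE 0.72) on the log2 scale, E2f7 from at most 0.392 CPM in wild type controls and with overlapping groups. The genes of this list that fell were Rb1, Rbl2 and Tfdp2, of which Rb1 and Rbl2 encode pocket proteins that hold E2F targets silent in resting cells. These 2 fell by 0.85 (SE 0.09) and 1.00 (SE 0.11) on the log2 scale. The MuvB core subunits Lin9, Lin37 and Lin52 had log2 changes of 0.07, 0.06 and 0.08 and were not called, while Lin54, the subunit that reads the CHR, rose by 0.41 (SE 0.10).

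The DNA replication list moved most evenly, with 19 of 20 genes higher, a median log2 change of 0.84 and 16 with a larger wild type response, against 14.1% of all tested genes. Cdc6, the loader of the replicative helicase, gave 2.60, 0.845 and 0.883 CPM in wild type controls and 14.0, 6.92 and 8.80 CPM with cGAMP (log2 change 2.78, SE 0.39). Rrm2, a subunit of ribonucleotide reductase, and Cdc45, part of the helicase, rose by 1.87 (SE 0.31) and 1.76 (SE 0.17), whereas Rrm1 had a log2 change of 0.03 (SE 0.11). In the mitotic entry list 9 of 12 genes rose and 1 fell. Chek1, a checkpoint kinase of S and G2 phase, Cdc25c, a phosphatase that activates Cdk1, and Mastl, the Greatwall kinase, rose by 2.00 (SE 0.23), 1.79 (SE 0.47) and 1.56 (SE 0.38). The gene that fell was Cdc25b, another phosphatase of this family, by 0.96 (SE 0.14).

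Among other kinetochore and checkpoint genes 7 of 17 rose and 1 fell, led by Kntc1 and Zwilch of the RZZ complex (2.30, SE 0.32, and 1.42, SE 0.16) and by Trip13, which dismantles the Mad2 complex (1.24, SE 0.16). In the list of the inner centromere complex and CENP-A loading 7 of 17 rose and none fell. Cenpm, of the inner kinetochore, gave 6.23, 5.91 and 5.72 CPM in wild type controls and 40.6, 41.0 and 34.5 CPM with cGAMP (log2 change 2.70, SE 0.14), with 4.27 to 6.64 CPM in all Tmem173-/- libraries. Oip5, which takes part in CENP-A loading, rose by 1.87 (SE 0.24), while Hjurp, the chaperone of CENP-A, gave 53.1, 52.3 and 44.0 CPM in controls and 56.4, 54.5 and 51.7 CPM with cGAMP and was not called. None of the 17 genes of this list was called lower, and Cenpo was the 1 gene with all 3 treated libraries below the controls (log2 change -0.24, SE 0.10, edgeR adjusted p = 0.0511).

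Other spindle and cytokinesis genes rose in 12 of 16 cases with none lower, among them Kif18b (1.75, SE 0.51, with overlapping groups), Kif14 (1.35, SE 0.47) and Kifc1 (1.19, SE 0.27). The anaphase-promoting complex and its regulators stood near the background, with 5 of 16 higher, 3 lower and a median of 0.07. Its inhibitor Fbxo5 and its enzyme Ube2s rose by 0.92 (SE 0.18) and 0.64 (SE 0.15), and the subunit Anapc13 fell by 0.59 (SE 0.16). Of the condensin, cohesin and shugoshin list 7 of 19 rose and 2 fell, with Sgo1, the protector of centromeric cohesin, at 1.58 (SE 0.23) and the condensin subunits Ncapg and Ncapg2 at 1.53 (SE 0.39) and 0.96 (SE 0.19). Of 7 CDK inhibitors, 2 rose, Cdkn1a, the p21 inhibitor (1.45, SE 0.28), and Cdkn2b (1.66, SE 0.44), and 3 fell, among them Cdkn2c, which fell by 1.07 (SE 0.15). Cdkn1b, the p27 inhibitor of resting cells, gave 111, 146 and 139 CPM in wild type controls and 68.7, 83.5 and 67.5 CPM with cGAMP. In Tmem173-/- cells 0 of the 144 genes was called after cGAMP.

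Some markers of other B cell states and of other cell types also moved in these comparisons, and their part in the results was not tested. The background for the counts below was 22.4% of all tested genes higher and 25.4% lower in wild type cGAMP than in wild type controls. The 7 germinal centre markers summed to 81.3 to 98.6 CPM in the 9 other libraries and to 40.4 to 44.1 CPM in wild type cGAMP, where 3 of the 7 fell and none rose. The 7 plasma cell markers summed to 840 to 925 CPM in wild type cGAMP and to 956 to 1081 CPM in the other libraries, and 4 of the 6 tested fell. Irf4 held the most counts of the 7 in every library, with 16331, 15266 and 15880 in wild type controls and 16727, 14954 and 18204 with cGAMP. Sdc1 held 1672, 2267 and 2043 counts in these controls and 469, 607 and 562 with cGAMP, so the sum follows neither gene alone. The 6 dendritic cell markers summed to 15.2 to 20.1 CPM in wild type controls, 36.6 to 44.8 CPM with cGAMP and 17.6 to 24.4 CPM in Tmem173-/-. Of these, Flt3 and Zbtb46 rose, while Xcr1 and Itgax were not called and Siglech and Clec9a had too few counts to be tested. The 8 erythroid markers summed to 3.89 to 5.27 CPM in wild type cGAMP and 15.9 to 21.5 CPM elsewhere, with 1 of the 4 tested lower, and of the 5 monocyte and macrophage markers tested 1 rose and 2 fell. The 2 precursor B cell markers and the 4 T cell markers that could be tested were not called in the wild type comparison. Because the labels do not say that reads were counted by strand, 15 of the 40 genes that overlap another counted gene may include its reads. In 6 of these, Ccna2, Cdca8, Kif4, Kif20a, Prc1 and Cdc20, the neighbour held more counts than the gene itself. Over all 12 libraries, Cdc23 had 16838 counts against 1439 for Kif20a, and Exosc9 16050 against 1340 for Ccna2. The overlap ran from 53 bases in Cdc20 to 21810 bases in Prc1. All of the 6 but Cdc20 rose in wild type cells, and the part of the neighbours' reads in this was not tested.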

How the data were processed

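Poly(A)-selected RNA of sorted B lymphocytes was sequenced from NEBNext Ultra libraries, per the labels' protocols. The authors deposited read counts per gene, and the submitters' processing notes name fastp, STAR, featureCounts and the builds GRCm38 and mm10; versions, strand setting and annotation release are not given in the sources used here. The deposited FPKM values are the authors' own, in FPKM per the file headers, with the gene length behind them not given in the sources used here, and were used only to compare levels between genes and as an alternative.

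Each of the 12 libraries, 3 in each of 4 groups, held 26490593 to 31417833 counts. Counts were filtered with filterByExpr, scaled by TMM and tested with edgeR 4.0.16 (R 4.3.3; robust quasi-likelihood F test) on 4 group means that share 1 estimate of the spread, with 5 contrasts and Benjamini-Hochberg adjustment over 14473 genes. A gene was called at an adjusted p under 0.05. The SE is the log2 change divided by the root of F, and 95% intervals use the t distribution with the degrees of freedom of the test. The steps were tested on simulated data. Alternatives used DESeq2 1.42.0, limma 3.58.1, other scalings and filters, a replicate block and single libraries left out. Leaving out both wild type, or all 4, replicate 1 libraries was chosen after seeing the data.

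The genes and lists were chosen with earlier results of these data known. Values in every library are given, in each role group, for the genes with the largest and the smallest wild type change, for those called against the majority and for those whose difference between responses was called. From each pathway list up to 3 called genes with the largest change are named, and others named there were chosen after their values were seen. One gene that this rule names is not reported here. Promoter windows are those of RefSeq on GRCm38.p6. Exact binomial intervals cover counting error only.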

Additional observations from a re-analysis of the deposited data

Results flagged for a closer look

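For 15 of the 40 genes the edgeR test of the difference between the genotypes' responses passed the threshold, and the values below are the wild type response minus the Tmem173-/- response on the log2 scale. They were 2.15 for Kif2c, 2.09 for Bub1, 1.78 for Anln, 1.75 for Cdk1 and 1.66 for Ttk. Espl1 differed by 1.64, Ccna2 by 1.53, Top2a by 1.48, Kif15 by 1.39 and Birc5 by 1.31. Nuf2 differed by 1.23, Cdca8 by 1.06, Cenpe by 0.92 and Ect2 by 0.70. Cenpa, the single gene in the other direction, differed by -0.98.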

How the results depend on the processing

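Of the 23 genes that rose in wild type cells, 17 were called under all 17 alternatives, as was Cenpa, and the count was 19 to 28 without single libraries. Of the other 6, Nek2, Kif2c and Tpx2 were lost without the libraries named beside them above, Kif11 without wild type control replicate 3, Kif23 without control replicate 2 or 3 or cGAMP replicate 1 or 3, and Spc25 without both wild type replicate 1 libraries. The count of 14 genes with a larger wild type response was the least stable: it was 7 to 19 without single libraries. The count lower in Tmem173-/- under cGAMP was 16 to 24 without single libraries. The summed level without Bub3, Top2a and Mki67 was 247 CPM in wild type controls and 316 CPM after treatment, and 246 and 253 CPM for Tmem173-/-. No called value reversed. SEs of the wild type change ran from 0.09 for Bub3 to 0.54 for Nek2 and did not follow depth alone: Mki67, with 112 to 394 counts in a wild type control, had 0.53, and Anln, with 9 to 21, had 0.41.

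With the replicate number as a block within genotype (replicate block), the wild type counts were 29 higher and 1 lower, 0 were called in Tmem173-/- cells, and 22 were higher and 1 lower in the difference. Over all 14473 tested genes, same-numbered libraries deviated together with correlations of 0.300, 0.218 and 0.083 in wild type and 0.288, 0.096 and 0.170 in Tmem173-/-. Every library correlated best with its own number. Over the mitotic genes alone the correlations were 0.65, 0.48 and -0.39 in wild type and 0.56, -0.19 and 0.06 in Tmem173-/-. Because the labels do not say what a shared number stands for, the main fit had no block. Comparisons between genotypes had no fit with the block, because the block lies within genotype.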
